A study of Chlamydomonas reinhardtii with 28 samples.

Results

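Isolated narrow H3K9me1 peaks are short, solitary stretches of histone H3 monomethylated at lysine 9, here in the green alga Chlamydomonas reinhardtii. They are the wild-type (WT) peaks under 1000 bp wide on chromosomes 1 to 17, with their midpoint over 50 kb from both chromosome ends and with no other H3K9me1 peak of the same list within 5 kb. The WT mt+ list held 366 such peaks among 3831, and the WT mt- list held 449 among 4113, which makes 815 of 7944 WT H3K9me1 peaks. They were chosen by width and position alone, so those properties are descriptions and not results. Chromatin immunoprecipitation with sequencing (ChIP-seq) was carried out on vegetative cells of 2 haploid strains of opposite mating type, CC-5155 (plus, written mt+) and CC-5325 (minus, written mt-). Each strain was profiled as WT, as a knockout of DNMT1 (dnmt1) and as a knockout of SET3 (set3), and the set3 cells for H3K9me1 alone. The other 3 marks, H3K4me1, H3K4me3 and H3K9me3, come from WT and dnmt1 cells. Each combination of mark, genotype and strain was 1 library with 1 peak list, so a difference between strains or genotypes has no replicate error, and nothing in the labels says how many knockout clones stand behind a genotype.

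In Chlamydomonas, monomethylation of H3 lysine 9 is the form of that modification associated with silenced transgenes and repeats, and it is deposited by SET-domain methyltransferases, to which SET3 belongs. DNMT1 is a maintenance cytosine methyltransferase, which copies methylation onto newly replicated DNA. H3K4me3 marks the promoters of active genes, whereas H3K4me1 has been linked in this alga to repressed genes in euchromatin.

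The members made up 9.55% of the WT mt+ list and 10.9% of the WT mt- list by number, but only 2.22% and 2.64% of the length those lists covered, namely 167 kb and 209 kb. Before the isolation step there were 2104 narrow peaks in the chromosome interiors of WT mt+ and 2345 of WT mt-, so 17.4% and 19.1% of the narrow interior peaks stood alone. The others, 1738 in WT mt+ and 1896 in WT mt-, had a further H3K9me1 peak within 5 kb and are called narrow peaks in company below. They share the width limit, with median widths of 482 and 457 bp, and have median distances of 0.400 kb (WT mt+) and 0.408 kb (mt-) to the next peak, against 29.7 kb and 29.3 kb for the members. The remaining interior peaks were 1042 and 1085 peaks of 1 to 5 kb and 238 and 267 peaks of 5 kb or more.

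The members were weak as well as short. Their median width was 398 bp in WT mt+ and 407 bp in WT mt-. The fold given here is the authors' enrichment at the summit over the local background. Its median was 2.14 in WT mt+, with a range of 1.28 to 4.90, and 2.12 in WT mt-, with a range of 1.47 to 5.48. Narrow peaks in company had medians of 2.35 and 2.25, peaks of 1 to 5 kb had 3.14 and 3.09, and peaks of 5 kb or more had 4.73 and 4.18. The deposited fold and p-value allow the number of fragments piled up at a summit to be recovered, and its median over the members was 95 for WT mt+ and 97 for WT mt-. A −log10 q-value of at least 5, far above the lists' own limit of about 2, was reached by 270 of the 366 members in WT mt+ (73.8%) and by 350 of the 449 in WT mt- (78.0%).

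Depth differed between the libraries that the members are compared with. The recovered background at narrow interior peaks was 43.5 fragments in WT mt+, 46.0 in WT mt- and 47.0 in dnmt1 mt-, against 22.3 in dnmt1 mt+, 25.4 in set3 mt+ and 25.5 in set3 mt-. At those backgrounds a summit needed a fold of about 1.61 in WT mt+, 1.59 in WT mt- and 1.64 in dnmt1 mt- to enter the list, and of 1.89, 1.92 and 1.88 in the other three. A peak missing from a list was therefore a peak not called at that depth, which by itself does not show that the mark was absent.

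The width limit cuts through a continuous range. In WT mt+ the 3 members just inside it were 999 bp (chr11:1244257-1245255, fold 4.27), 996 bp (chr12:9895167-9896162, fold 3.49) and 991 bp wide (chr1:395046-396036, fold 4.33). The 3 isolated peaks just outside it were 1019 bp (chr2:2412186-2413204, fold 2.07), 1032 bp (chr16:7638443-7639474, fold 4.28) and 1037 bp wide (chr12:6251809-6252845, fold 2.55). All 6 had a peak in WT mt- and none in dnmt1 mt+ or set3 mt+. In WT mt- the members just inside were 996 bp (chr6:4138575-4139570, fold 3.52), 989 bp (chr7:1528993-1529981, fold 3.06) and 989 bp wide (chr11:1244331-1245319, fold 3.82), and the peaks just outside were 1025 bp (chr8:4167682-4168706, fold 3.56), 1034 bp (chr11:1508492-1509525, fold 2.97) and 1060 bp wide (chr6:531663-532722, fold 3.36). Only the third of the former and the first of the latter had a peak in WT mt+. At 1 kb or wider, a further 132 peaks of WT mt+ and 125 of WT mt- met the position and isolation criteria. Coordinates are 1-based and as deposited, on a genome build not given in the sources used here.

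Agreement between the strains was the first question. Of the 366 WT mt+ members, 163 (44.5%, Wilson 95% interval 39.5 to 49.7) were overlapped by at least 1 bp of a WT mt- peak, against 81.2% of the whole WT mt+ list. Of the 449 WT mt- members, 144 (32.1%, 27.9 to 36.5) had a WT mt+ peak, against 75% of the whole WT mt- list. These intervals, like all intervals given here, cover counting error only. The isolated peaks were thus the part of each list found least often in the other strain. Narrow peaks in company were found in the other strain at 78.7% and 69.7%, which put the members 34.1 percentage points lower in WT mt+ (difference -34.1, 95% interval -39.5 to -28.6) and 37.7 lower in WT mt- (-37.7, -42.3 to -32.7). Peaks of 1 to 5 kb were found at 93.4% and 90.6%, and peaks of 5 kb or more at 99.6% and 99.3%.

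**Figure D1:**
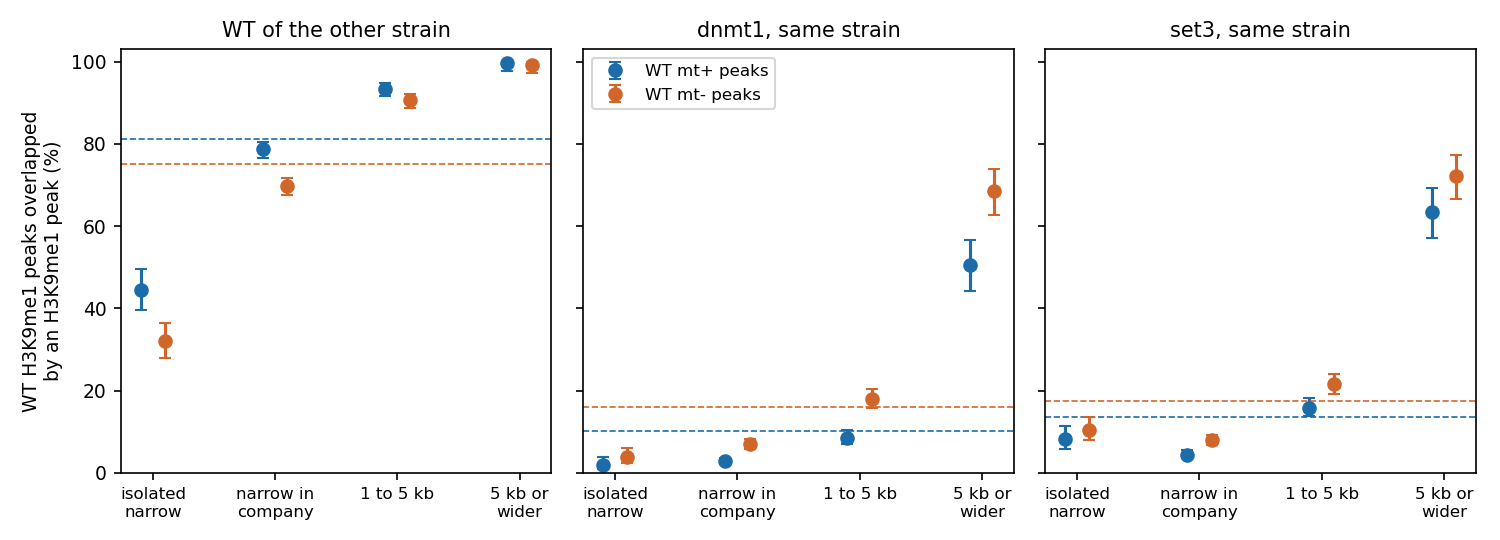
Share of WT H3K9me1 peaks (y axis, percent) overlapped by an H3K9me1 peak of the other WT strain, of dnmt1 and of set3, for isolated narrow peaks and 3 other classes of interior peak; bars are Wilson 95% intervals and dashed lines the share of the whole list. The isolated peaks sit at 44.5% and 32.1% in the first panel, under every other class, and at 1.91% to 10.5% in the mutants, beside the narrow peaks in company.

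Where a member was found again, the summits were usually close together. The summits of the overlapping peaks lay a median of 48 bp apart for WT mt+ members and 47 bp for WT mt- members, and within 100 bp of each other for 112 of 163 (68.7%) and 100 of 144 (69.4%). The partner was itself an isolated narrow peak in 101 cases in each direction. In the other cases it was mostly a narrow peak in company (37 of the WT mt+ members and 31 of the WT mt- members) or a peak of 1 to 5 kb (25 and 11), and in 1 case a peak of 5 kb or more.

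Stronger members were found more often. When the members were ordered by fold and cut into 4 bins of 91 or 92 (WT mt+) and 111 to 114 (WT mt-), the shares of WT mt+ found in WT mt- were 28.3%, 35.2%, 47.8% and 67.0% from the lowest to the highest bin. For WT mt- members they were 25.4%, 24.3%, 28.6% and 50.0%, so that only the highest bin stood apart in that strain. The median fold was 2.32 for WT mt+ members that were found and 2.05 for those that were not, and 2.28 and 2.05 in WT mt-. Their median widths were 505 and 350 bp in WT mt+, and 493.5 and 387 bp in WT mt-. Nearly the same shares were found among members above the fold that the other WT library needed, at 45.1% (158 of 350) and 32.4% (139 of 429).

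Most members without a partner had nothing nearby in the other strain. Of the 203 WT mt+ members not found in WT mt-, 175 (86.2%) lay more than 5 kb from any WT mt- H3K9me1 peak, with a median distance of 26.7 kb. Of the 305 WT mt- members not found in WT mt+, 286 (93.8%) did so, with a median of 34.4 kb. H3K4me3 peaks near them were mostly shared by the strains, as H3K4me3 peaks were in general. Where an unmatched member had an H3K4me3 peak within 2 kb in its own strain, that H3K4me3 peak was also present in the other strain at 132 of 132 WT mt+ members and at 204 of 208 WT mt- members (98.1%). Over all interior H3K4me3 peaks the shares were 99.5% in WT mt+ and 97.5% in WT mt-. The other unmatched members had no H3K4me3 peak within 2 kb, and the count does not bear on the sequence of the member itself.

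Some unmatched members were strong. A fold of at least 3 was reached by 10 unmatched members of WT mt+ and 11 of WT mt-, beside 27 and 21 matched ones. The following were picked after their values were seen. At chr17:787419-787854 the WT mt+ summit had a fold of 3.86 and 148 fragments, and the nearest WT mt- peak was 37.2 kb away. At chr4:2076488-2077254 the WT mt- summit had a fold of 3.72 and 162 fragments, with the nearest WT mt+ peak at 148 kb. Neither overlapped a peak of any mutant list, nor of another mark in WT or dnmt1 of its own strain.

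The 101 loci that were members in both strains are the part of the class that was isolated and narrow in both WT lists. Their folds ran from 1.37 to 4.49 in mt+ and from 1.52 to 5.48 in mt-, with medians of 2.34 and 2.37, and WT mt+ was the higher at 51 loci. Across these loci the folds of the strains had a Spearman rho of 0.675 and a Pearson r of 0.664, given as a description, because all points come from the same 2 libraries and only loci called in both can enter. Summits were within 100 bp of each other at 74 loci, with a median distance of 44 bp and a largest of 284 bp.

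**Figure D2:**
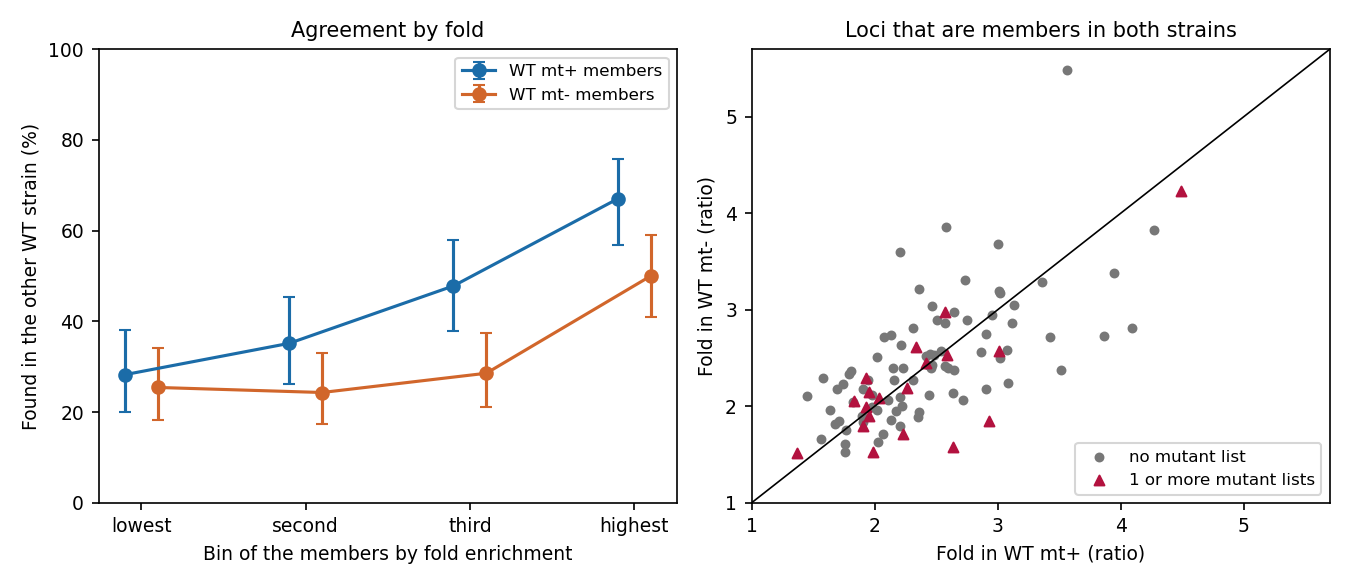
Left, share of members found in the other WT strain (y axis, percent, Wilson 95% intervals) by bin of fold, from 28.3% to 67.0% for mt+ members and from 25.4% to 50.0% for mt- members. Right, fold in WT mt+ (x axis) against fold in WT mt- (y axis) at the 101 loci that were members in both strains, with triangles for loci that overlap a peak of 1 or more mutant lists and the line of equal values.

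Few members had a counterpart in the mutants. A member is called kept when a peak of the mutant list of its own strain overlaps it by at least 1 bp. In dnmt1, 7 of 366 WT mt+ members were kept (1.91%, 0.929 to 3.89), against 10.2% of the whole list, and 17 of 449 WT mt- members (3.79%, 2.38 to 5.98), against 16%. In set3, 30 of 366 WT mt+ members were kept (8.20%, 5.80 to 11.5), against 13.5% of the whole list, and 47 of 449 WT mt- members (10.5%, 7.96 to 13.6), against 17.5%. Thus 332 members of WT mt+ and 397 of WT mt- had no peak in either mutant of their strain, and 3 and 12 had one in both. The former are 90.7% (87.3 to 93.3) and 88.4% (85.1 to 91.1) of the members, against 82.5% and 76.8% of the whole lists and 93.6% and 87.6% of the narrow peaks in company. Those with a peak in both mutants are 0.820% and 2.67% of the members. This compares with 6.24% and 10.3% of the whole lists and 0.806% and 2.43% of the narrow peaks in company. The members were close to other narrow peaks in both respects.

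Against all other interior peaks of the same list, the kept share of the members was lower in each of the 4 mutant libraries, by a mean of 7.64 percentage points (differences from -11.9 to -4.83, mean -7.64). The exact sign-flip permutation test over the 4 libraries gave p = 0.13 (two-sided), the smallest value 4 libraries allow, so this design cannot pass a threshold of 0.05. The direction rests on the overlap criterion. When at least 50% of the WT peak had to be covered, 68.1% to 88.2% of the overlapped members still counted as kept over the 4 libraries, against 5.0% to 13.5% of the overlapped peaks of 5 kb or more, and the mean difference became 0.790 points, with 2 of 4 libraries negative (exact p = 0.5).

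Against narrow peaks in company the sign differed by mutant. Those peaks were kept at 2.82% and 6.91% in dnmt1 and at 4.43% and 7.91% in set3, in mt+ and mt- respectively. The members were lower than these in dnmt1, by -0.907 points in mt+ (-2.23 to 1.19) and -3.12 in mt- (-4.99 to -0.689), and higher in set3, by 3.77 points in mt+ (1.14 to 7.14) and 2.56 in mt- (-0.266 to 5.93). The intervals of dnmt1 mt+ and set3 mt- include 0. Over the 4 libraries the mean difference was 0.573 points (2 of 4 negative, exact sign-flip p = 0.875, two-sided, smallest possible 0.13).

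The kept members were the weaker ones of WT in 3 of the 4 comparisons. In mt+ the median WT fold was 1.90 for members kept in dnmt1 and 2.15 for those without a dnmt1 peak, and 1.89 and 2.16 for set3. In mt- it was 1.90 and 2.13 for dnmt1, and 2.13 and 2.11 for set3. The mutant peaks at the kept members had median folds of 2.28 in dnmt1 mt+, 1.81 in dnmt1 mt-, 2.18 in set3 mt+ and 2.09 in set3 mt-, and they were under 1000 bp wide in 7 of 7, 16 of 17, 26 of 30 and 42 of 47 cases. The folds of WT did not order the members by their fate in the same way in both strains. In the highest fold bin of WT mt+, 0 of 91 members were kept in dnmt1, which allows a share of up to 4.05% by the Wilson interval, and 5 of 91 (5.49%) in set3, against 3 of 92 (3.26%) and 14 of 92 (15.2%) in the lowest bin. In WT mt- the highest bin kept 3 of 112 (2.68%) in dnmt1 and 10 of 112 (8.93%) in set3, and the lowest 9 of 114 (7.89%) and 16 of 114 (14.0%), with the middle bins at 2.70% and 1.79% in dnmt1 and 6.31% and 12.5% in set3.

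Restricting the comparison to members above the fold that the mutant library needed left the shares low. In dnmt1 they were 4 of 271 (1.48%) in mt+ and 15 of 424 (3.54%) in mt-, and in set3 13 of 258 (5.04%) in mt+ and 33 of 344 (9.59%) in mt-. The set3 mt+ share moved most, since 17 of its 30 kept members had a WT fold below the 1.92 that this library needed.

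Whether a member was found in the other WT strain bore differently on its fate in the 2 strains. In mt-, members found in WT mt+ were kept more often than those not found, at 12 of 144 (8.33%) against 5 of 305 (1.64%) in dnmt1 and 26 of 144 (18.1%) against 21 of 305 (6.89%) in set3. In mt+, members found in WT mt- were kept in set3 less often than the others, at 7 of 163 (4.29%) against 23 of 203 (11.3%), and in dnmt1 about as often, at 3 of 163 (1.84%) against 4 of 203 (1.97%). At 15 of the 203 WT mt+ members not found in WT mt-, both set3 lists had a peak. The same held at 4 of the 305 WT mt- members not found in WT mt+. These splits are not given here for the whole lists or for narrow peaks in company, so they do not show whether the patterns are particular to the members.

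Of the 101 loci that were members in both strains, 82 (81.2%, 72.5 to 87.6) overlapped no peak in any of the 4 mutant lists, 11 overlapped 1 list, 4 overlapped 2, 3 overlapped 3 and 1 overlapped all 4. A locus counted as overlapping when its peak of either WT strain did, whereas the shares set beside it here use the peaks of 1 WT list. Among all WT peaks that had a peak in the other WT strain, 71.1% of the WT mt+ list and 69.8% of the WT mt- list overlapped none of the 4, and 86.5% and 84.7% of such narrow peaks in company, so the shared loci were near their narrow neighbours in this. By list, 3 had a peak in dnmt1 mt+ (2.97%) and 6 in set3 mt+ (5.94%), against 10.2% and 13.5% of the whole WT mt+ list. In mt-, 6 had a peak in dnmt1 (5.94%, against 16% of the whole WT mt- list) and 17 in set3. The last of these is 16.8% (10.8 to 25.3), near the 17.5% of the whole WT mt- list, and the set3 mt- list was the longest of the mutant lists, with 6160 peaks. The whole-list shares by mutant also include WT peaks that were not found in the other strain.

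The strongest of the 82 loci without a mutant peak was at chr11:1244257-1245255, with folds of 4.27 in mt+ and 3.82 in mt-, and an H3K4me3 peak 0.078 kb away. Next came chr4:1927435-1928271, with folds of 3.57 and 5.48, and chr13:2395187-2395894, with 3.94 and 3.39. Both of these lay on H3K4me3. At the chromosome 4 locus the H3K4me3 fold was 4.45 in WT of mt+, 4.48 in WT of mt-, 6.73 in dnmt1 mt+ and 5.18 in dnmt1 mt-. At the chromosome 13 locus it was 3.74 and 3.42 in WT and 5.81 in dnmt1 mt+, while dnmt1 mt- had no overlapping H3K4me3 peak. The others in order were chr12:5201832-5202122 (3.36 and 3.29), only 291 bp wide and 9.66 kb from the nearest H3K4me3 peak, chr6:8514641-8515237 (3.13 and 3.05) and chr15:2031146-2031693 (3.02 and 3.17). None of these 6 overlapped H3K9me3 or H3K4me1.

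A single locus was kept in all 4 mutant lists, at chr12:9440227-9441153. It was a weak one in WT, with folds of 1.95 in mt+ and 1.90 in mt-, and its folds in the mutants were 2.28 in dnmt1 mt+, 1.83 in dnmt1 mt-, 2.31 in set3 mt+ and 2.14 in set3 mt-. It also carried H3K4me1, with folds of 2.56 and 2.04 in WT mt+ and mt- and 2.00 and 1.94 in dnmt1. The 3 loci present in 3 mutant lists were chr14:2897401-2897789, chr7:1234076-1234416 and chr17:5537016-5537391, named after their values were seen, and the last 2 of these carried H3K4me1 in WT of both strains. The strongest locus of all, chr8:2651181-2651813 (folds 4.49 and 4.23), was likewise singled out afterwards, and it overlapped a peak of fold 2.30 in dnmt1 mt- and in no other mutant.

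H3K4me3 peaks seldom lay on the members. Only 14 of 366 WT mt+ members (3.83%, against 10.4% of the whole list) and 24 of 449 WT mt- members (5.35%, against 12.4%) overlapped an H3K4me3 peak of their strain. Narrow peaks in company did so at 4.49% and 6.49%. The differences of the members from these had intervals that included 0 (-2.54 to 1.98 in mt+, -3.24 to 1.55 in mt-). The summit of the member was inside an H3K4me3 peak at 3 members (0.820%, 0.279 to 2.38) and 7 members (1.56%, 0.757 to 3.18). For narrow peaks in company this held at 1.84% and 2.80%. The baseline for these distances was the interior sequence over 5 kb from every H3K9me1 peak that is not a member, 95.8 Mb in WT mt+ and 95.1 Mb in WT mt- of 110.6 Mb, in which H3K4me3 peaks covered 11.8% and 12.4%.

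The shares within a distance are cumulative, and the members caught up with the baseline between 500 bp and 1 kb. Within 500 bp of an H3K4me3 peak were 13.4% of the WT mt+ summits (10.3 to 17.3) and 16.5% of the WT mt- summits (13.3 to 20.2), against 24.8% and 25.5% of that sequence. Within 1 kb the members met the baseline, at 36.1% (31.3 to 41.1) against 36.1% in WT mt+ and 40.3% (35.9 to 44.9) against 36.9% in WT mt-. Within 2 kb were 60.4% (55.3 to 65.3) and 65.9% (61.4 to 70.2), against 55.1% and 55.9%. From 500 bp to 1 kb the share of the members rose from 13.4% to 36.1% in WT mt+, and that of the sequence from 24.8% to 36.1%. In WT mt- these rises were from 16.5% to 40.3% and from 25.5% to 36.9%. A larger part of the members than of the sequence therefore lay in that range. The members' cumulative share was thus under the baseline on H3K4me3 peaks and within 500 bp of them, and above it at 2 kb. In WT mt+ the lower limit at 2 kb, 55.3%, was close to the baseline of 55.1%. Narrow peaks in company were within 2 kb at 37.6% and 37.7%. The median gap to the nearest H3K4me3 peak for the members was 1.54 kb (WT mt+) and 1.30 kb (WT mt-), and 3.02 and 3.09 kb for the narrow peaks in company.

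H3K9me3 was also rare on the members. In WT mt+ its share was under the baseline at each distance given here, although at 2 kb the interval included the baseline. It overlapped 7 of 366 WT mt+ members (1.91%, against 7.15% of the list) and 10 of 449 WT mt- members (2.23%, against 7.32%). Narrow peaks in company were overlapped at 3.05% and 3.11%, and the intervals of the differences included 0 (-2.48 to 0.969 in mt+, -2.23 to 1.07 in mt-). The summit was inside an H3K9me3 peak at 0.546% and 1.34% of members, where 7.60% and 8.20% of the baseline sequence was covered. For narrow peaks in company this held at 1.73% and 1.58%. Within 2 kb the shares were 41.8% (36.9 to 46.9) and 48.8% (44.2 to 53.4), with 45.3% and 47.1% of the baseline sequence. Within 5 kb the members were below the baseline in both strains, at 68.0% (63.1 to 72.6) against 76.6%, and 73.3% (69.0 to 77.2) against 78.5%.

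**Figure D3:**
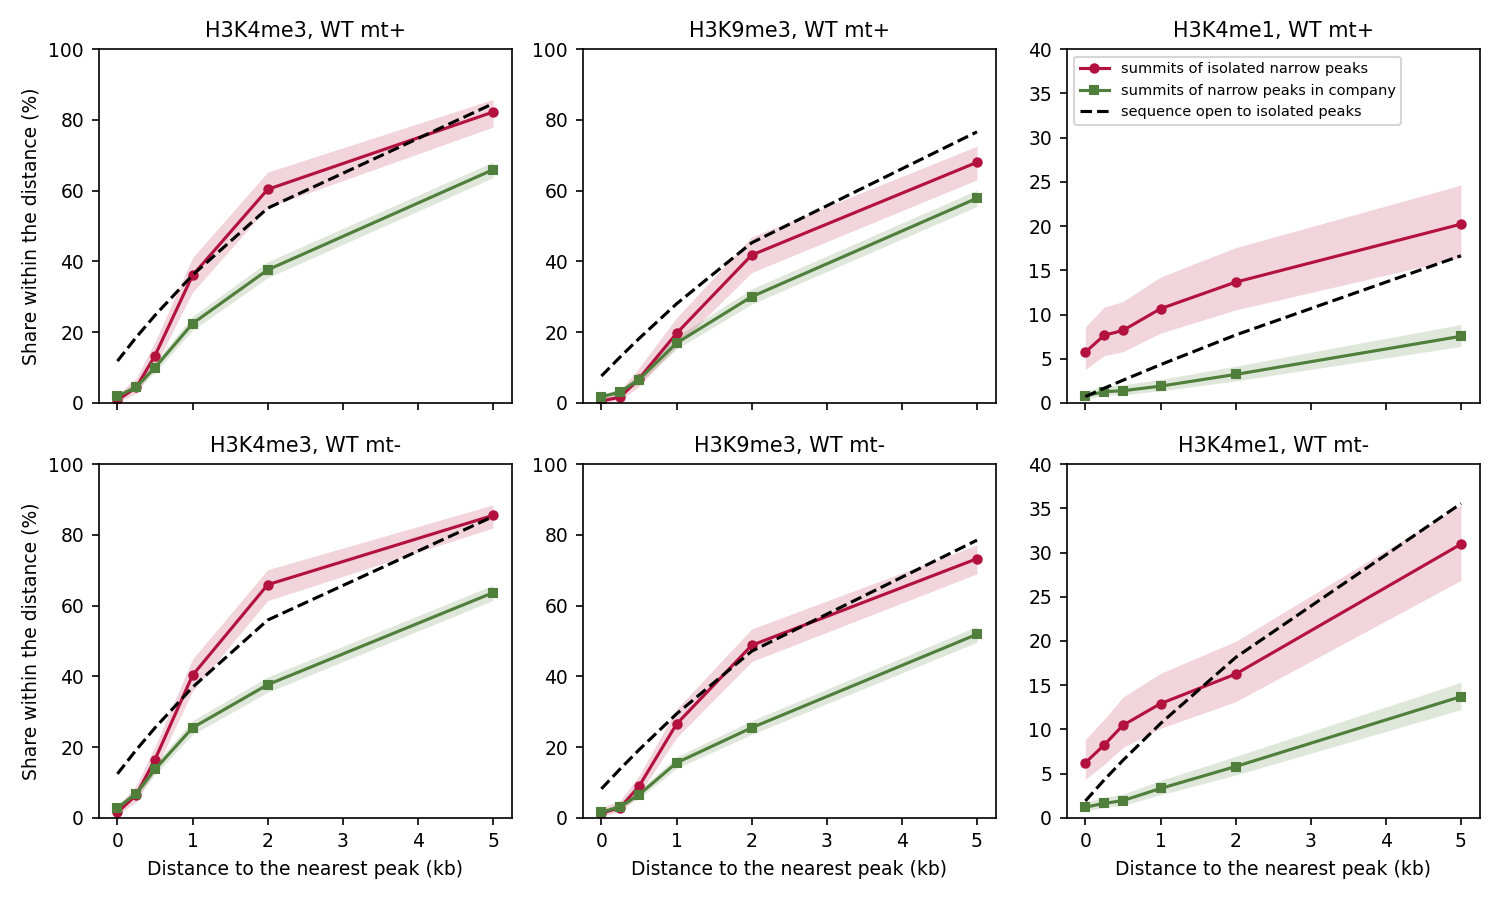
Share (y axis, percent) of the summits of isolated narrow peaks, of the summits of narrow peaks in company, and of the interior sequence over 5 kb from every H3K9me1 peak that is not a member ("sequence open to isolated peaks", dashed) within a given distance (x axis, kb) of the nearest WT peak of each mark; shading shows Wilson 95% intervals. For H3K4me3 the members start at 0.820% and 1.56%, under the dashed line, and lie at 60.4% and 65.9% at 2 kb, while for H3K4me1 they start at 5.74% and 6.24%, above it.

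H3K4me1 showed the reverse at short range. It overlapped 27 of 366 WT mt+ members (7.38%, against 3.45% of the whole list) and 36 of 449 WT mt- members (8.02%, against 5.01%). Narrow peaks in company overlapped H3K4me1 at 1.21% and 1.74%, and the differences were 6.17 points in mt+ (3.82 to 9.34) and 6.28 in mt- (4.00 to 9.20). Peaks of 1 to 5 kb overlapped it at 4.32% in mt+ and 7.83% in mt-, the latter near the members. Peaks of 5 kb or more did so at 12.6% and 15.0%, above the members in both strains. The summit was inside an H3K4me1 peak at 5.74% of WT mt+ members (3.78 to 8.61) and 6.24% of WT mt- members (4.35 to 8.87), where 0.719% and 1.90% of the baseline sequence was covered. In WT mt-, the excess was gone by 2 kb, at 16.3% of members (13.1 to 20.0) and 18.1% of the sequence. In WT mt+ it was still present, at 13.7% (10.5 to 17.6) and 7.68%.

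Members with H3K4me1 were kept in the mutants more often than those without. In set3 mt+, 11 of the 30 kept members overlapped WT H3K4me1 (36.7%, 21.9 to 54.5), against 16 of the 336 others (4.76%, 2.95 to 7.59). In set3 mt- the numbers were 18 of 47 (38.3%, 25.8 to 52.6) against 18 of 402 (4.48%, 2.85 to 6.97). In dnmt1 they were 4 of 7 against 23 of 359 (6.41%) in mt+, and 6 of 17 against 30 of 432 (6.94%) in mt-. The kept members thus had the higher share in all 4 mutant libraries, and in none of them did the intervals of kept and other members overlap. Those intervals cover counting error within a library only. The dnmt1 and set3 comparisons of a strain use the same WT H3K9me1 and H3K4me1 lists, so they are not independent. Seen from the other side, set3 kept 11 of 27 H3K4me1-bearing members in mt+ (40.7%) and 18 of 36 in mt- (50.0%).

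Narrow peaks in company showed the same contrast in set3 at a lower level of H3K4me1. It overlapped 9 of 77 kept ones (11.7%, 6.27 to 20.7) against 12 of 1661 others (0.722%, 0.414 to 1.26) in mt+, and 18 of 150 (12.0%, 7.73 to 18.2) against 15 of 1746 (0.859%, 0.521 to 1.41) in mt-. In dnmt1 it overlapped 3 of 49 kept ones (6.12%, 2.10 to 16.5) against 18 of 1689 (1.07%, 0.675 to 1.68) in mt+. In dnmt1 mt- it overlapped 5 of 131 (3.82%, 1.64 to 8.62) against 28 of 1765 (1.59%, 1.10 to 2.28), and these intervals overlap. The contrast in set3 is therefore not particular to the isolated peaks, and in dnmt1 the narrow peaks in company differed in the same direction. The narrow interior H3K9me1 peaks that the mutant lists hold overlapped WT H3K4me1 often in general, at 12.5% of 2239 in set3 mt+, 20.1% of 5430 in set3 mt-, 9.26% of 799 in dnmt1 mt+ and 16.0% of 2198 in dnmt1 mt-. The members with H3K4me1 were found in the other WT strain at 9 of 27 (33.3%) and 10 of 36 (27.8%), and the members without it at 45.4% and 32.4%. H3K4me1 itself was present in the other strain at 16 of 27 and 11 of 36 of them, and an H3K4me3 peak lay within 2 kb at 21 of 27 and 29 of 36. The matching share over all H3K4me1 peaks is not given here, and the WT H3K4me1 lists searched held 5151 (mt-) and 2067 peaks (mt+). Of all members, 60.4% in WT mt+ and 65.9% in WT mt- had their summit within 2 kb of an H3K4me3 peak. These counts are descriptions only.

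**Figure D4:**
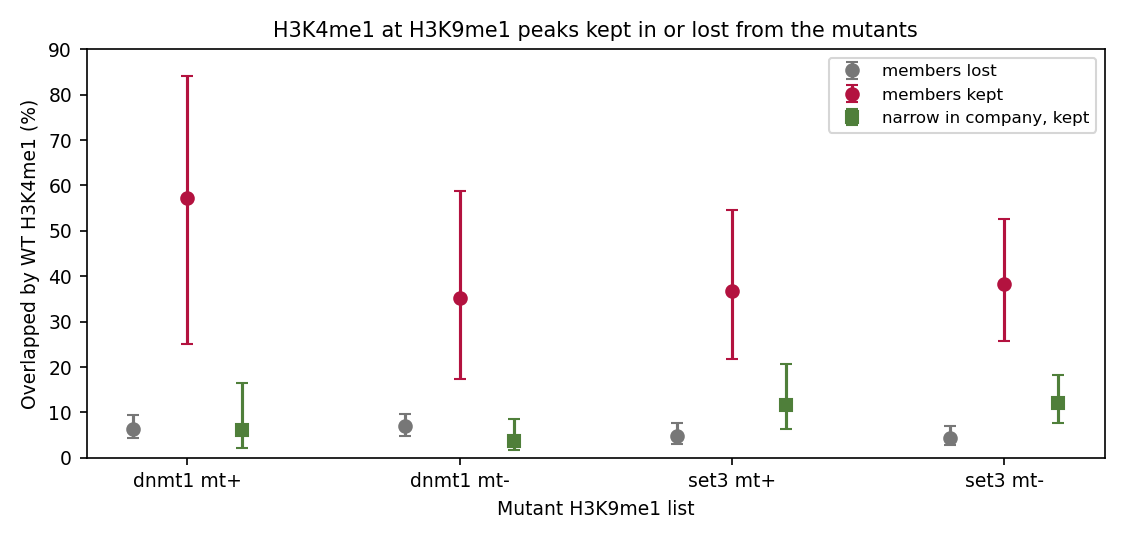
Share of WT H3K9me1 peaks overlapped by WT H3K4me1 (y axis, percent, Wilson 95% intervals) for isolated narrow peaks with and without a peak in each mutant list, and for narrow peaks in company that were kept. Kept members stand at 35.3% to 57.1%, and members without a mutant peak at 4.48% to 6.94%.

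In dnmt1, H3K4me3 and H3K9me3 still overlapped few members, and the counts did not differ from WT in the same direction in both strains. H3K4me3 overlapped 23 members of WT mt+ in dnmt1 (6.28%, against 13.8% of the whole list), compared with 14 in WT, with 13 overlapped in both genotypes. In mt- it overlapped 20 (4.45%, against 13.1%), compared with 24 in WT, with 19 in both. H3K9me3 overlapped 7 in dnmt1 mt+ (1.91%, against 9.08%), as many as in WT, and 15 in dnmt1 mt- (3.34%, against 9.73%), compared with 10 in WT. For narrow peaks in company the dnmt1 shares in mt+ and mt- were 6.33% and 6.43% for H3K4me3 and 3.80% and 3.74% for H3K9me3. The intervals of the members' differences from these all included 0. No locus of the 101 shared ones had an H3K4me3 or H3K9me3 peak in dnmt1 of both strains where WT of neither had one.

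The H3K4me1 counts differed in opposite directions. In mt+ the overlapped members went from 27 in WT to 68 in dnmt1 (18.6%, against 9.16% of the whole list), and in mt- from 36 to 8 (1.78%, against 1.39%). The H3K4me1 lists themselves went from 2067 to 12718 peaks in mt+ and from 5151 to 1104 in mt-. The length of these lists moved with the result, and its part in it was not tested.

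The members were spread over all 17 chromosomes, at 3.82 per Mb of the baseline sequence in WT mt+ and 4.72 in WT mt-. Chromosome 15 had the highest density in both strains, with 43 members in WT mt+ (12.6 per Mb) and 34 in WT mt- (10.2 per Mb), against chromosome medians of 3.85 and 4.62. Per Mb of all interior sequence the densities were lower, at 7.45 and 5.89, against medians of 3.44 and 4.05, and chromosome 5 came next in WT mt- at 5.58. Chromosome 15 also held the most interior H3K9me1 peaks, 617 in WT mt+ and 630 in WT mt-, of which the members were 6.97% and 5.40%, the lowest share of any chromosome. Its members were found in the other strain at 24 of 43 (55.8%) and 18 of 34 (52.9%). The lowest densities were on chromosome 2 in WT mt+ (14 members, 1.76 per Mb) and on chromosome 11 in WT mt- (10 members, 2.64 per Mb). Chromosome 16 differed most between the strains in number, with 14 members in WT mt+ and 35 in WT mt-.

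**Figure D5:**
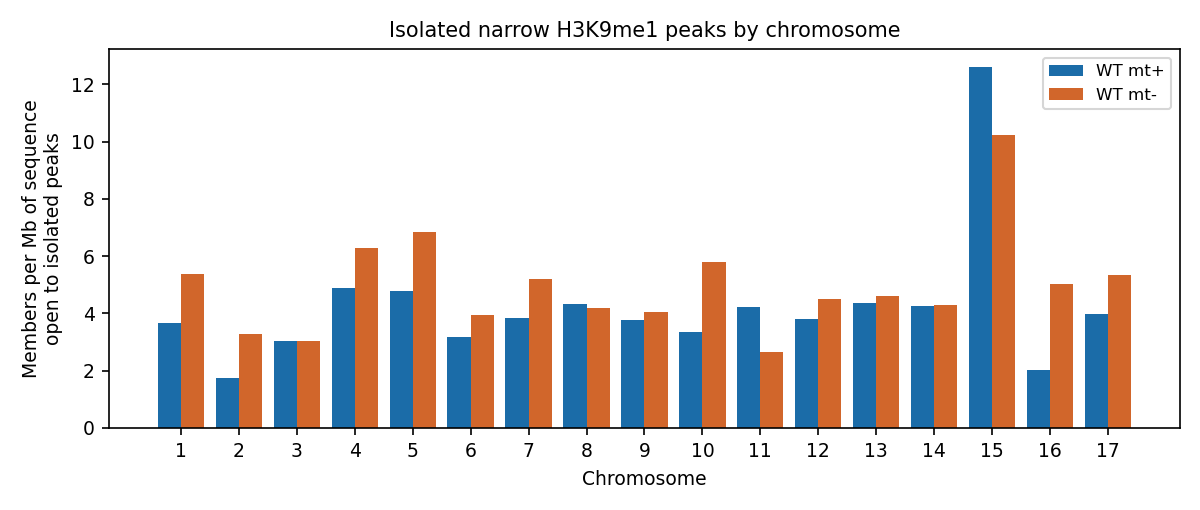
Isolated narrow H3K9me1 peaks per Mb of interior sequence over 5 kb from every H3K9me1 peak that is not a member (y axis), by chromosome (x axis), in WT mt+ and WT mt-. Chromosome 15 stands at 12.6 and 10.2 per Mb, above every other chromosome in both strains.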

How the data were processed

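ChIP-seq peak lists of 18 libraries were analysed, each called by the authors on 1 library. The 10 input libraries were not analysed here. Their labels name H3K4me1 or H3K9me1, and no input is labelled for H3K4me3 or H3K9me3. The submitters' processing notes name MACS2 2.2.7.1 along with Trim Galore 0.6.7, deepTools 3.5.1, Bowtie2 2.4.2 and Picard; no build or settings are given in the sources used here. For each peak the authors deposited its position and summit (in bp), an integer display score, a fold enrichment (a linear ratio), and its p-value and q-value as −log10. The display score was not used. The lowest deposited −log10 q-value was just over 2 in each H3K9me1 list, a q-value limit of about 0.01. Fold and q-values were used to describe, rank and filter peaks within a list.

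No list holds read counts. Fragments and background at each H3K9me1 summit were recovered by finding the library scale at which the deposited fold and −log10 p-value (within 0.002) gave a whole number of fragments, which solved 100% of summits. The fold needed to enter a list was computed from the summits with a −log10 q-value under 2.5. On 3 simulated lists of 3000 summits the fragments were right for 99.8% to 100% of them, with a largest background error of 3.03%.

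Members were found with python 3.11.15, numpy 2.4.6 and pandas 2.3.3. A chromosome was taken to end at the farthest peak in any list. Peaks were matched by an overlap of at least 1 bp. Shares have Wilson 95% intervals and their differences Newcombe intervals, which treat peaks as independent and cover counting error only. The gap between members and other peaks over the 4 mutant libraries was tested with an exact sign-flip permutation test (two-sided); these libraries share 2 WT lists. No p-value was computed between strains or between genotypes. The members and the lists they are compared with were chosen with earlier results of these data known. Loci were named by rule from those that were members in both strains, ranked by the lower fold: the first 6 in no mutant list, the first 6 in all 4 (1 existed), the first 4 with a dnmt1 H3K4me3 or H3K9me3 peak new in both strains (0 existed), and the 3 on each side of the width limit. No genome of the files' build was used here, so loci carry no gene names or sequences. Alternatives were an overlap of 50%, a peak within 500 bp, the summit inside a peak, a −log10 q-value of at least 5 for members or for the other list, isolation gaps of 2 and 10 kb or against both WT lists, a width limit of 500 bp, and members above the fold needed. The summit, the fold needed, the split by the other WT strain and the sequence baseline were chosen after seeing the data.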

Additional observations from a re-analysis of the deposited data

Results flagged for a closer look

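Several contrasts at the isolated narrow peaks had opposite signs in the groups compared. None was tested between the groups with opposite signs, because each rests on 1 library per strain and genotype. For the first contrast, the sign-flip test over the 4 mutant libraries is given above (exact sign-flip p = 0.875).

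The kept share of isolated narrow peaks minus that of narrow peaks in company was -0.907 percentage points in dnmt1 mt+ and -3.12 in dnmt1 mt-, but 3.77 in set3 mt+ and 2.56 in mt- of the same mutant. The sign was the same in both strains within a mutant and differed between the mutants. The background depth was 22.3 fragments in dnmt1 mt+ and 47.0 in dnmt1 mt-, with 25.4 and 25.5 in the set3 libraries, and its part in the result was not tested.

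The share of members overlapped by H3K4me1 in dnmt1 minus WT was 11.2 points in mt+ and -6.24 in mt-, beside lists that went from 2067 to 12718 peaks in mt+ and from 5151 to 1104 in mt-. For H3K4me3 the same difference was 2.46 points in mt+ and -0.891 in mt-, beside lists of 15256 and 15674 peaks in mt+ and of 15433 and 15540 in mt-.

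Members found in the other WT strain minus members not found differed in kept share by -0.130 points in mt+ and 6.69 in mt- for dnmt1, and by -7.04 points in mt+ and 11.2 in mt- for set3. The same split over the whole lists is not given here.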

How the results depend on the processing

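Across 19 results, 152 alternative values were computed: 112 counted as unchanged, 39 moved outside the main value's interval and 1 reversed. A share counted as unchanged when it stayed within the main interval, and the mean kept-share difference when it kept its sign. No paired analysis was possible because the labels give each group a single replicate, so no replicate numbers pair; each mutant was compared with WT of its own strain throughout. The isolation gap of 10 kb moved none of the 19, and isolation against both WT lists, run for the 5 kept-share results alone, moved none of those.

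The reversed value is the mean kept-share difference between members and other interior peaks, from -7.64 points to 0.790 when 50% of the WT peak had to be covered. With the summit inside a peak it kept its sign but shrank to -3.98 points. Over the 4 libraries it then ran from -7.97 to -0.708, against -11.9 to -4.83 in the main setting. The share found in the other WT strain (44.5% in mt+, 32.1% in mt-) became 50.0% and 36.6% for members with a −log10 q-value of at least 5, 33.8% and 25.5% with a width limit of 500 bp, and 50.0% in mt+ with a 2 kb gap. Kept shares were 0.820% (dnmt1 mt+), 3.83% (set3 mt+), 2.00% (dnmt1 mt-) and 4.90% (set3 mt-) when the mutant list was held to the stricter q-value. In set3 mt+ they were 5.19% for stricter members and 5.04% for members above the fold needed, and in set3 mt- 7.13% with 50% covered and 7.57% with the summit inside.

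For H3K4me3 in WT mt+, dnmt1 mt+, WT mt- and dnmt1 mt-, the overlapped shares were 1.09%, 1.91%, 1.56% and 1.34% with 50% covered, 23.8%, 26.8%, 27.2% and 25.4% within 500 bp, and 0.820%, 2.19%, 1.56% and 1.34% by the summit. With a 500 bp width limit the first was 1.69%. For H3K9me3 they were 0.546%, 1.11% and 1.56% with 50% covered in WT mt+, WT mt- and dnmt1 mt-, 12.6%, 13.1%, 15.8% and 15.4% within 500 bp in the 4 lists as ordered above, and 0.546% and 1.34% by the summit in WT mt+ and dnmt1 mt-. For H3K4me1 they were 24.0% (dnmt1 mt+) and 12.0% (WT mt-) within 500 bp, and 4.44% (WT mt+) and 12.6% (dnmt1 mt+) for stricter members. Apart from the criterion each alternative names, the cause was not tested.

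In dnmt1 mt+, set3 mt+ and set3 mt-, 95, 108 and 105 members lay below the fold needed, and 3, 17 and 14 of them were kept all the same. Whether depth lowered the kept shares was not tested. The H3K4me1 shares in kept dnmt1 members rest on 7 and 17 peaks.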
